A study of Mus musculus with 18 samples.

Results

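The genes described here are the mouse matrix proteases and their inhibitors: every matrix metalloproteinase (Mmp), every ADAMTS protease (Adamts), every ADAMTS-like protein (Adamtsl) and the tissue inhibitors of metalloproteinases Timp1 to Timp4. They were taken by gene symbol and number 51 of the 24062 genes listed: 23 Mmp, 19 Adamts, 5 Adamtsl and 4 Timp genes. They were read in polyA RNA from 18 samples of NIH3T3 cells, a mouse embryonic fibroblast line grown in medium with 10% calf serum. The parental NIH3T3 line is called WT here, and the derived line NIH3T3-mCherry-mTRIM21, which carries a fusion of mouse TRIM21 to mCherry, a red fluorescent protein, is called TRIM21. TRIM21 is a cytosolic ubiquitin ligase that binds antibodies, and the series set out to compare mRNA profiles after an antibody was brought into cells with and without it. Each line received PBS, BSA (bovine serum albumin, a control protein) or IgG (an antibody) by electroporation, in 2 pulses of 20 ms at 1400 V, and RNA was taken 16 h later. The same amount of protein was given for BSA and for IgG. Each of the 6 groups held 3 samples, whose titles carry the numbers 10, 11 and 14. The promoter of the fusion, and whether the TRIM21 line is 1 clone, are not given in the sources used here, so a difference between the lines cannot be told apart from one that arose when the derived line was made. Nor does any label say that the samples came from separate cultures, and p-values then measure only the spread between these samples, which may be technical.

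Matrix metalloproteinases are zinc-dependent enzymes that are made as inactive precursors and cleave collagens, gelatin, fibronectin and other proteins of the extracellular matrix, either as secreted enzymes or, in the membrane types, at the cell surface. ADAMTS proteases carry thrombospondin repeats that hold them in the matrix, where some cleave the large proteoglycans aggrecan and versican and others trim the ends of procollagens before fibrils form. ADAMTS-like proteins have the accessory domains without the protease. TIMPs bind the active site of these enzymes. TIMP2 also takes part in activation, since it links the precursor of MMP2 to the membrane enzyme MMP14. Fibroblasts make many of these proteins, while others are typical of other cells.

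Total gene counts were 19509017 to 26521824 in the 9 WT samples and 20314542 to 29766433 in the 9 TRIM21 samples, and the 51 genes together took 0.336% to 0.465% of them. Trim21 itself had 19900 to 32225 counts in TRIM21 samples and 142 to 223 in WT samples, which matches the labels of the lines. All 9 fibroblast markers looked at were measured in both lines, with a summed level of 26222 to 35602 counts scaled to library size (CPM, counts per 1e+06) in WT and 17636 to 30099.6 CPM in TRIM21. Markers of epithelial, endothelial, fat and muscle cells summed to at most 2.60 CPM in any sample, and the 4 macrophage markers in the files to at most 9.20 CPM. A pair of libraries stood apart. The TRIM21 PBS sample numbered 11 held the lowest of the 18 values for 23.7% of all tested genes and the highest for 24.7%, and among the tested matrix genes it was lowest for 16 and highest for 3. The WT PBS sample numbered 14 held the lowest value for 17.5% of all tested genes and the highest for 16.2%, and was lowest for 4 and highest for 4 of the tested matrix genes. Values without these samples are given beside several of the line differences below.

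The genes fell into a measured part and a nearly silent part. A default filter on low counts kept 27 of the 51 genes: 9 of 23 Mmp, 12 of 19 Adamts, 3 of 5 Adamtsl and 3 of 4 Timp genes. Of the other 24, 7 had no count in any sample: the collagenases Mmp1a and Mmp8, Mmp7 (matrilysin), Mmp20 (enamelysin, the protease of tooth enamel), Mmp27, Adamts18 and Adamts19. A count of 0 allows up to 3 counts, which is 0.0981 to 0.152 CPM in these libraries and covers counting error only. A further 14 genes reached at most 3 counts in any sample, among them Mmp10, Mmp12 (macrophage elastase), Timp4 and Adamts13, the protease of von Willebrand factor. The remaining 3 were Mmp13 with 0 to 10 counts, Mmp15 with 0 to 7 counts and Adamtsl3 with 2 to 13 counts. At this depth none of these 24 genes could be compared between groups, and all 4 collagenases of the list were among them.

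Many of the silent genes lie together. On chromosome 9 (GRCm38, the mm10 build), 10 Mmp genes lie side by side within 427.1 kb, from 7272514 to 7699585: Mmp13, Mmp12, Mmp1b, Mmp3, Mmp1a, Mmp10, Mmp8, Mmp27, Mmp20 and Mmp7. Only Mmp3 (stromelysin 1) of these 10 passed the filter, 5 had no count at all, and the highest count of any of them in any sample was 22, for Mmp3. Other nearly silent genes, such as Mmp15, Mmp17 and Mmp25, lie outside this block. Because most genes of the block were nearly silent, the stretch of promoter that most of them share is shown here. The windows run from 250 bases before to 50 bases after each gene's RefSeq start (GRCm38.p6), and 36 of the 51 genes had one. The motif TGANTCA, with any base at N, is its own reverse complement. It takes in TGACTCA and TGAGTCA, known as the binding site of the AP-1 factors Fos and Jun. The motif was present in the window of 8 of the 10 genes of the block and of 0 of the 26 other genes with a window. The share of all 32851 windows, likewise with any base at N, was 7.81%. The genes of the block are neighbours of the same family, so their windows may not be independent of each other. The match in Mmp20, TGAATCA, is neither of the AP-1 forms named. Below, each of the 8 is given with 15 bases on either side, 5′ to 3′ on the gene's own strand, and the capitals mark the motif.
Mmp13 (chr9:7272464-7272500, plus strand): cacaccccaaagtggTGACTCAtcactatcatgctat
Mmp12 (chr9:7347315-7347351, plus strand): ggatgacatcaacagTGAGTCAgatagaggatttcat
Mmp1b (chr9:7388098-7388134, minus strand): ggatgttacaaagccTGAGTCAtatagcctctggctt
Mmp3 (chr9:7445761-7445797, plus strand): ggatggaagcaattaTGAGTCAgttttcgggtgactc
Mmp1a (chr9:7464053-7464089, plus strand): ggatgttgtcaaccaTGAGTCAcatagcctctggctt
Mmp10 (chr9:7502264-7502300, plus strand): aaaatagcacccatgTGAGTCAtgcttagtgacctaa
Mmp20 (chr9:7628121-7628157, plus strand): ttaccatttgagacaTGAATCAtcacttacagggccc
Mmp7 (chr9:7692012-7692048, plus strand): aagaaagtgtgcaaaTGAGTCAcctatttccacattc

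The first base of the motif lay 35 bases before the start in Mmp13, 46 in Mmp3, 73 in Mmp1a and 95 in Mmp20, the farthest of the 8. The TATA motif TATAAA, searched on both strands, was in 9 of the 10 windows of the block, in 3 of the 26 others and in 13.6% of all windows. The GC box GGGCGG, also searched on both strands, gave the opposite picture. It was in 0 of the 10 windows of the block and in 22 of the 26 others, against 35.7% of all windows, and in 13 of the 15 tested and 9 of the 21 untested genes with a window. All 9 of these untested genes lie outside the block. One GC box each of the proteoglycan-cleaving gene Adamts1 and the procollagen-cleaving gene Adamts2 is shown as an example of the motif absent from the block, with the box in capitals. Adamts1 is also 1 of the 3 genes outside the block with the TATA motif, which stands in lower case just before its box.
Adamts1 (chr16:85803118-85803153, minus strand): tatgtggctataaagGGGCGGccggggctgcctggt
Adamts2 (chr11:50601841-50601876, plus strand): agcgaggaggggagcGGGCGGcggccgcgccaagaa

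No match of one motif overlapped a match of another in these windows. A match describes letters and not a bound site, and no binding was measured. The 15 genes without a window included Mmp16, Adamts15, Mmp2 and Mmp9.

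The inhibitors and a single gelatinase dominated the measured genes. Levels are compared between genes as CPM per kilobase of annotated exon (RPKM), and the mean over all 18 samples was 366 RPKM for Timp1, 308 for Timp2, 238 for Mmp2, 69.6 for Timp3, 53.9 for Adamts1, 35.8 for Mmp14 and 18.3 for Mmp19. The 3 measured inhibitors therefore held 3 of the first 4 places, and the sum of the Timp genes, 733 ± 31.6 RPKM in WT and 756 ± 53.1 RPKM in TRIM21 (SD, n = 9), was above that of all Mmp genes, 315 ± 22.9 and 283 ± 33.8 RPKM. The Adamts genes summed to 106 ± 22.9 RPKM in WT and 82.1 ± 17.6 RPKM in TRIM21. Mmp2, the gelatinase that cleaves denatured collagen and basement membrane collagen, stood at 249 ± 20.3 RPKM in WT and 226 ± 27.1 RPKM in TRIM21. Its fellow gelatinase Mmp9 had a mean of 1.48 RPKM. Of the 2 membrane-type enzymes measured, Mmp14 had a mean of 35.8 RPKM and Mmp16 one of 0.0688 RPKM over all samples.

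**Figure D1:**
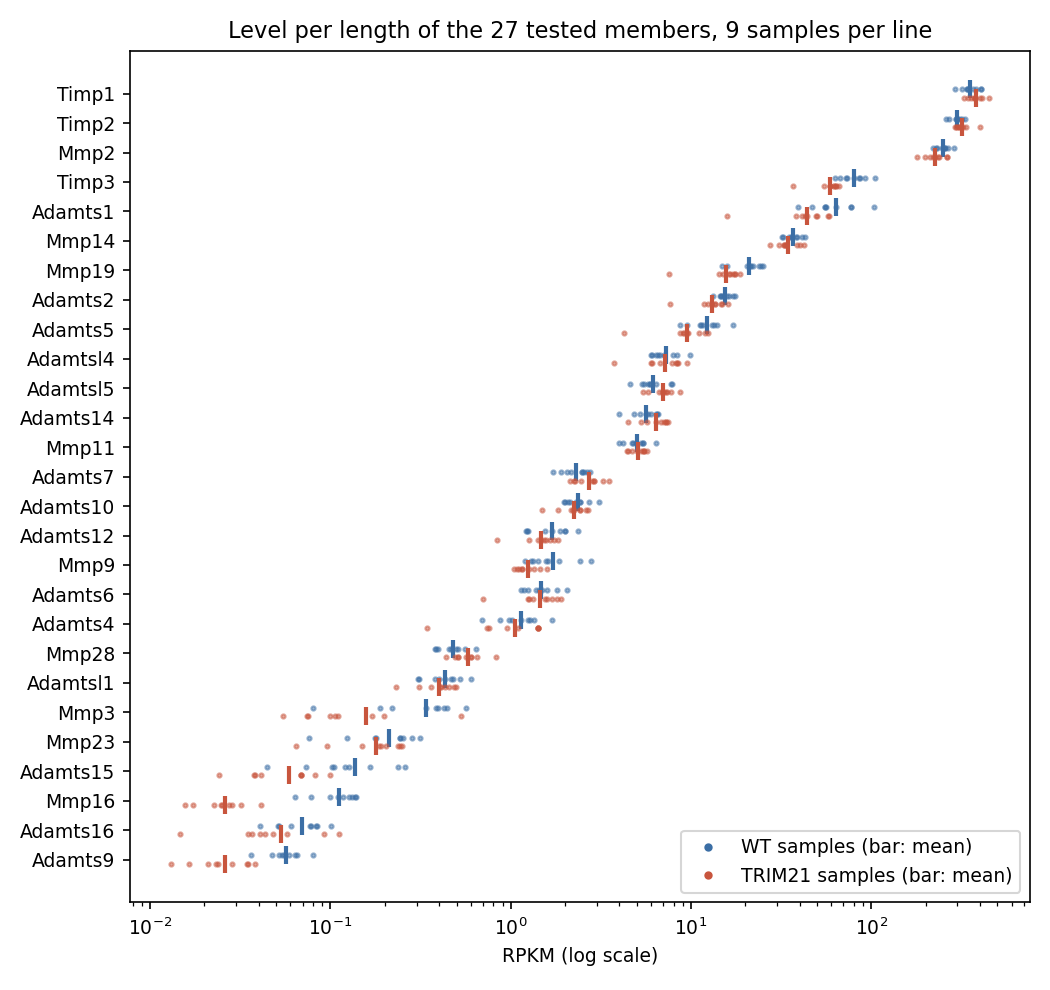
The level of each of the 27 tested genes is plotted in RPKM on a log axis, with 1 point per sample (9 WT and 9 TRIM21) and a bar at the mean of each line. Timp1, Timp2 and Mmp2 lie above 200 RPKM in nearly every sample, and Adamts16 and Adamts9 have the lowest means, 0.0614 and 0.0414 RPKM.

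Among the ADAMTS proteases, Adamts1 (53.9 RPKM), the procollagen N-proteinase Adamts2 (14.2 RPKM) and the aggrecanase Adamts5 (10.9 RPKM) led, followed by Adamts14 (6.02 RPKM), a second procollagen N-proteinase. Adamts1 and Adamts5 are neighbours on chromosome 16, 53059 bases apart and on the same strand. The aggrecanase Adamts4 was lower, at 1.10 RPKM. Of the ADAMTS-like genes, Adamtsl4 (7.22 RPKM), which binds fibrillin microfibrils, and Adamtsl5 (6.56 RPKM) were well above Adamtsl1 (0.415 RPKM). The order of neighbours such as Adamtsl4 and Adamtsl5 is not beyond their spread: in WT they stood at 7.23 ± 1.28 and 6.13 ± 1.07 RPKM (SD, n = 9).

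Between the lines, 4 matrix genes were lower in TRIM21 and none was higher. Mmp16, a membrane-type metalloproteinase also called MT3-MMP, fell 4.21-fold, the proteoglycan-cleaving proteases Adamts15 and Adamts9 fell 2.31-fold and 2.192-fold, and the inhibitor Timp3 fell 1.38-fold. These are edgeR quasi-likelihood estimates averaged over the 3 treatments, with p-values adjusted by the Benjamini-Hochberg method over all 12140 genes tested and a threshold of 0.05. Of all genes tested, 6.18% were called, 1.39% higher and 4.79% lower, so 4 of 27 stands beside a background of several percent. Of the 27 genes, 20 had a log2 fold change below 0 and 7 above, with a median of -0.14 beside 0.01 over the whole table. Leaving out TRIM21 PBS number 11, the median was -0.07 and 18 genes lay below 0. An unadjusted p under 0.05 was reached by 10 of the 27, beside 21.4% of all tested genes. When each TRIM21 sample was set beside the WT sample of its treatment and number, 4.78% of all tested genes were lower in all 9 pairs. The test did not pair the samples by number. A fit with the number as a block also called Adamts1, Adamts2, Mmp3, Mmp9 and Mmp19, and more of all genes, as given in the last section.

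**Figure D2:**
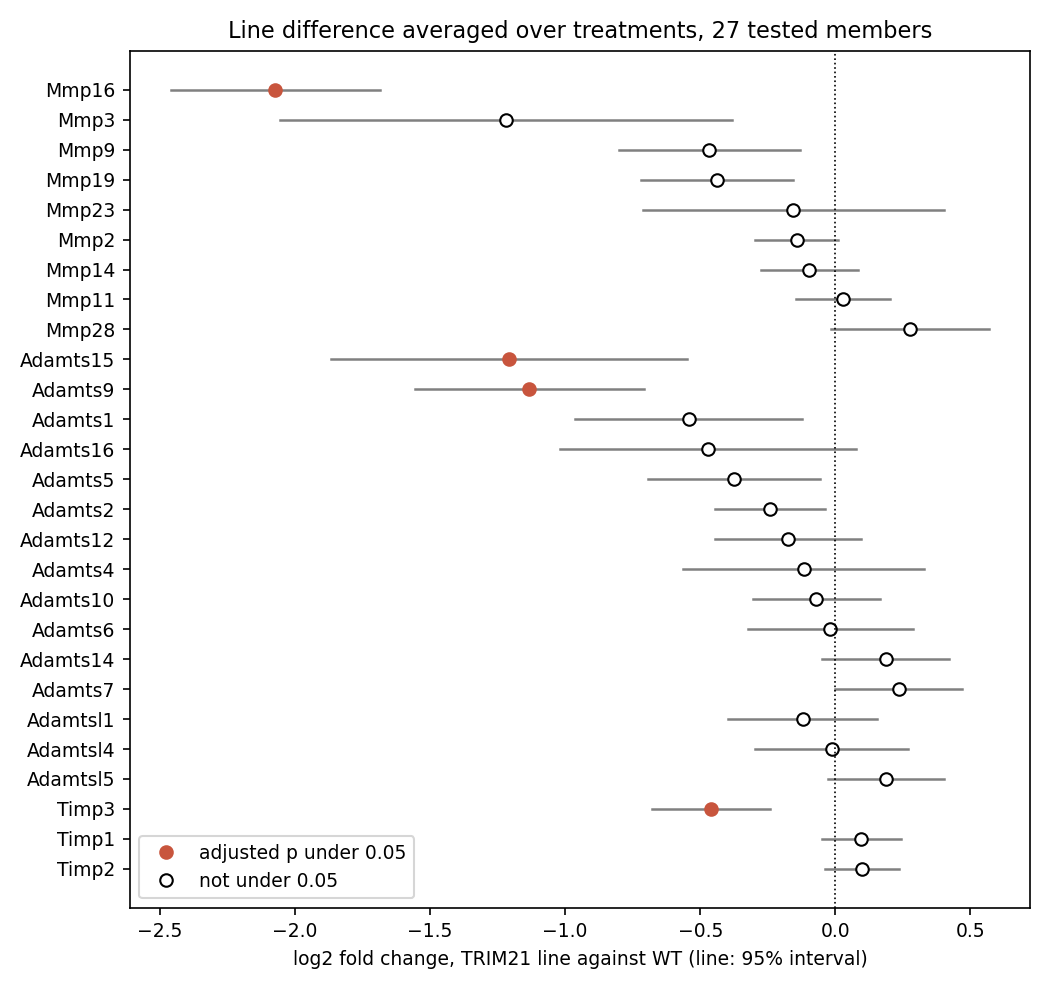
The log2 fold change of TRIM21 against WT, averaged over treatments, is plotted for the 27 tested genes by family, with its 95% interval as a line and filled points for an adjusted p under 0.05. Mmp16 at -2.07, Adamts15 at -1.21, Adamts9 at -1.13 and Timp3 at -0.46 are filled, and the points of Timp1 and Timp2 lie just above 0.

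Mmp16, which sits in the cell membrane and cleaves matrix at the cell surface, is annotated on the plus strand of chromosome 4 from 17852893 to 18119145. In the WT samples numbered 10, 11 and 14 it measured 1.202, 1.13 and 1.10 CPM after PBS, 0.959, 0.553 and 0.677 CPM after BSA, and 1.02, 0.863 and 1.18 CPM after IgG. In TRIM21 it measured 0.238, 0.150 and 0.215 CPM after PBS, 0.278, 0.358 and 0.196 CPM after BSA, and 0.217, 0.247 and 0.135 CPM after IgG. Every TRIM21 sample was below every WT sample, which held for 1.67% of all tested genes. The means were 0.966 ± 0.228 CPM in WT and 0.226 ± 0.0670 CPM in TRIM21 (SD, n = 9), and the log2 fold change was -2.07 with a standard error of 0.18 and an edgeR adjusted p of 5.236e-07. The TRIM21 level was 0.230 of WT among samples numbered 10, 0.296 among those numbered 11 and 0.184 among those numbered 14. A WT sample held 12 to 28 counts of Mmp16 and a TRIM21 sample 3 to 8, so the direction is better measured than the size, for which the 95% interval of the log2 fold change ran from -2.46 to -1.69. A processed pseudogene, Gm11860, overlaps Mmp16 on the opposite strand.

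Adamts9, which cleaves versican and aggrecan, was lower in TRIM21 in all 9 pairs. In WT it measured 0.979, 0.810 and 0.958 CPM after PBS, 0.785, 0.829 and 1.204 CPM after BSA, and 0.883, 0.711 and 0.542 CPM after IgG (numbers 10, 11 and 14). In TRIM21 it measured 0.570, 0.350 and 0.429 CPM after PBS, 0.516, 0.313 and 0.196 CPM after BSA, and 0.522, 0.247 and 0.359 CPM after IgG. The ranges overlapped only through the WT IgG sample numbered 14, which was below the highest TRIM21 sample. The means were 0.856 ± 0.186 and 0.389 ± 0.129 CPM (SD, n = 9), and the log2 fold change was -1.13 with a standard error of 0.20 and an edgeR adjusted p of 0.00153. Counts per sample were 11 to 32 in WT and 5 to 13 in TRIM21. Adamts9 spans 92772699 to 92943492 on the minus strand of chromosome 6, where 3 annotated genes overlap it on the opposite strand. The library kit kept strand, but the strand setting used for counting is not given in the sources used here, so reads of such partners may be counted with it.

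Adamts15, another aggrecanase, was lower in 8 of 9 pairs and far more variable. It measured 0.757, 1.05 and 1.73 CPM after PBS, 1.09, 0.460 and 2.67 CPM after BSA, and 1.25, 1.32 and 2.46 CPM after IgG in WT (numbers 10, 11 and 14). In TRIM21 it measured 0.428, 0.250 and 0.715 CPM after PBS, 0.715, 0.715 and 0.850 CPM after BSA, and 0.391, 0.396 and 1.03 CPM after IgG. In both lines the sample numbered 14 was the highest of each treatment, and the ranges of the lines overlapped. The means were 1.42 ± 0.741 and 0.610 ± 0.256 CPM (SD, n = 9), and the log2 fold change was -1.21 with a standard error of 0.31 and an edgeR adjusted p of 0.0269. The call was lost, with an edgeR adjusted p of up to 0.0782, on leaving out any 1 of 7 samples: TRIM21 PBS 11, TRIM21 BSA 10, TRIM21 IgG 10, TRIM21 IgG 11, WT PBS 14, WT BSA 14 or WT IgG 14. Over all 18 samples left out in turn, its log2 fold change stayed between -1.42 and -0.92. Adamts15 had 10 to 71 counts in a WT sample and 5 to 26 in a TRIM21 sample.

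Timp3, the inhibitor that binds to the matrix and also inhibits ADAMTS aggrecanases, was the only abundant gene of the 4. In WT it measured 598, 545 and 849.6 CPM after PBS, 588, 515 and 703 CPM after BSA, and 651, 699 and 754 CPM after IgG (numbers 10, 11 and 14). In TRIM21 it measured 479.9, 301 and 504 CPM after PBS, 478, 519 and 542 CPM after BSA, and 516, 447 and 508 CPM after IgG. TRIM21 was lower in 8 of 9 pairs, the exception being the BSA samples numbered 11, and the ranges met between 515 and 542 CPM. Per length, the means were 80.5 ± 13.1 RPKM in WT and 58.6 ± 8.82 RPKM in TRIM21 (SD, n = 9), and the log2 fold change was -0.46 with a standard error of 0.10 and an edgeR adjusted p of 0.0109. Without the TRIM21 PBS sample numbered 11, its lowest value, the log2 fold change was -0.40 with an edgeR adjusted p of 0.00978. Without the WT PBS sample numbered 14, its highest value, it was -0.39 with an edgeR adjusted p of 0.0181. Timp3 lies on the plus strand of chromosome 10, from 86300372 to 86349506, wholly within the span of Syn3, which is annotated on the opposite strand.

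**Figure D3:**
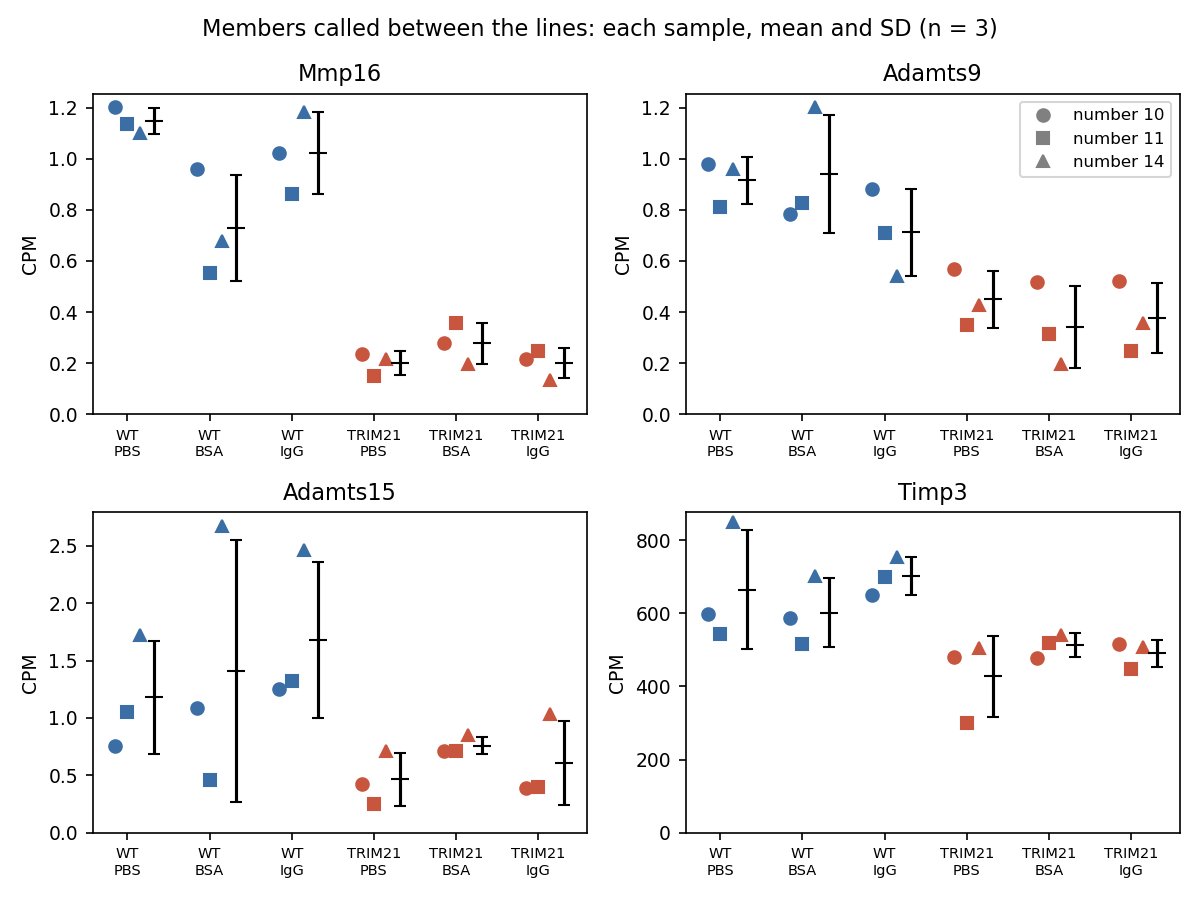
The 4 panels plot Mmp16, Adamts9, Adamts15 and Timp3 in CPM from 0, with 1 marker per sample shaped by its number (10, 11 or 14) and the mean and SD of each group of 3 in black. For Mmp16 the TRIM21 groups lie wholly below the WT groups, while for Adamts15 and Timp3 the TRIM21 and WT points overlap.

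The other measured inhibitors, Timp1 and Timp2, did not pass the test. Timp1, a secreted inhibitor of most metalloproteinases, ranged from 257 through a median of 307 to 360.3 CPM in WT and from 290.4 through 333 to 398 CPM in TRIM21. Timp2 ranged from 1009.9 through 1167 to 1291 CPM in WT and from 1135 through 1192 to 1558 CPM in TRIM21. For both genes the ranges of the lines overlapped in part, and the TRIM21 PBS sample numbered 11 held the highest value. The log2 fold change was 0.10 for Timp1 (95% interval -0.05 to 0.24, edgeR adjusted p = 0.450) and 0.10 for Timp2 (95% interval -0.04 to 0.24, edgeR adjusted p = 0.402). Whether the change of Timp3 differs from theirs was not tested.

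Neither gene of the MMP14 and MMP2 pair differed between the lines by the test. Mmp2 ranged from 742 through a median of 854 to 964 CPM in WT and from 608 through 761 to 888 CPM in TRIM21, with a log2 fold change of -0.14 (95% interval -0.30 to 0.01, edgeR adjusted p = 0.267). Mmp14 ranged from 191 through 217 to 255 CPM in WT and from 163 through 198 to 252 CPM in TRIM21, with a log2 fold change of -0.10 (95% interval -0.27 to 0.08, edgeR adjusted p = 0.542). In both genes the lowest value was the TRIM21 PBS sample numbered 11, without which the log2 fold changes were -0.12 and -0.064. Mmp19, a secreted metalloproteinase of basement membrane components, was closest to the threshold. Its level was 52.5 through 75.5 to 89.0 CPM in WT and 26.6 through 57.8 to 65.7 CPM in TRIM21, with a log2 fold change of -0.44 and an edgeR adjusted p of 0.0605. It passed in 5 of the 18 fits that left out 1 sample, among them the fit without TRIM21 PBS 11, where its log2 fold change was -0.35 and the edgeR adjusted p 0.0437. An annotated antisense gene, Gm47093, and Tmem198b overlap Mmp19 on the opposite strand.

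Mmp3, the expressed gene of the chromosome 9 block, had a log2 fold change of -1.22 and Mmp9 one of -0.47, and neither passed, with edgeR adjusted p of 0.0797 and 0.0962. Mmp3 rests on few counts, 3 to 22 in a WT sample and 3 to 19 in a TRIM21 sample. Of the TRIM21 samples it was high in PBS number 11 alone, at 0.950 CPM against 0.0981 to 0.357 CPM in the other 8, and it passed the threshold when that sample was left out. Sequence shared with Mmp10, another gene of the block, could affect its count, and this was not tested. On the other side, Mmp28 (epilysin) had a log2 fold change of 0.28 and Mmp11 (stromelysin 3) one of 0.03, with edgeR adjusted p of 0.261 and 0.868.

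All 5 measured proteoglycan-cleaving ADAMTS genes, of 7 listed, had lower estimates in TRIM21, and 2 of the 5 passed, beside the 4.79% of all genes called lower. Their median log2 fold change was -0.54. Adamts1 ranged from 206 through a median of 296 to 548 CPM in WT and from 83.4 through 232 to 311 CPM in TRIM21, with a log2 fold change of -0.54 (standard error 0.20, edgeR adjusted p = 0.121). Its neighbour Adamts5 ranged from 93.7 through 125 to 185 CPM and from 45.9 through 102 to 134 CPM, with a log2 fold change of -0.38 (edgeR adjusted p = 0.159). For both genes the highest sample of all was WT PBS number 14 and the lowest was TRIM21 PBS number 11. The log2 fold change of Adamts1 was -0.41 without the first and -0.43 without the second, and that of Adamts5 was -0.28 and -0.29. Neither gene passed in these fits. Adamts4 had a log2 fold change of -0.12.

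Of the procollagen-cleaving genes, Adamts2 was lower in TRIM21 in 9 of 9 pairs and did not pass the test, which did not pair the samples. Adamts2 was called with the number as a block, as given in the last section. It ranged from 123 through a median of 141 to 163 CPM in WT and from 71.5 through 126 to 149 CPM in TRIM21, with a log2 fold change of -0.24 (edgeR adjusted p = 0.156), and one of -0.18 without TRIM21 PBS 11. Adamts14 had a log2 fold change of 0.19 (edgeR adjusted p = 0.353), so the estimates of these 2 enzymes lay on opposite sides of 0. Among the other ADAMTS genes, Adamts7 had the highest estimate at 0.23 and Adamts16 the lowest at -0.47, and 0 of the 5 measured passed. None of the 3 ADAMTS-like genes passed. Adamtsl4 ranged from 25.3 through 28.2 to 41.6 CPM in WT and from 15.8 through 33.0 to 39.8 CPM in TRIM21, with a log2 fold change of -0.01 whose sign turned in 6 of the 18 fits that left out 1 sample. Adamtsl5 ranged from 21.8 through 28.0 to 37.1 CPM in WT and from 25.4 through 33.4 to 41.01 CPM in TRIM21, with a log2 fold change of 0.19 (edgeR adjusted p = 0.303). Adamtsl1 ranged from 3.91 through 5.48 to 7.69 CPM in WT and from 2.95 through 5.22 to 6.31 CPM in TRIM21, with a log2 fold change of -0.12 (edgeR adjusted p = 0.629).

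How the genes varied among the samples of a line was seen best in TRIM21 PBS number 11. It was the lowest of the 18 samples for Adamts1, Adamts2, Adamts4, Adamts5, Adamts6, Adamts10, Adamts12, Adamts15, Adamts16, Adamtsl1, Adamtsl4, Mmp2, Mmp14, Mmp19, Mmp23 and Timp3, and the highest for Adamts14, Timp1 and Timp2. Adamts1 was 83.4 CPM in it against 201 to 311 CPM in the other TRIM21 samples. Adamts5 was 45.9 CPM in it against 93.2 to 134 CPM. The lowest summed level of the fibroblast markers, 17636 CPM, was also in TRIM21 PBS number 11. Their summed medians were 29712 CPM in WT and 27721 CPM in TRIM21. Of the 9 markers, 8 had estimates below 0 between the lines, beside 5582 of all 12140 tested genes. Only Thy1 passed (log2 fold change -0.29), beside 6.18% of all tested genes called. An unadjusted edgeR p under 0.05 was reached by 6 of the 9 markers, beside 21.4% of all tested genes. The median log2 fold change of the 9 markers was -0.28, beside -0.14 for the 27 matrix genes and 0.01 for all tested genes. The part of these markers in the differences between the lines was not tested. In bulk RNA, fewer cells of a kind and less RNA per cell cannot be told apart.

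**Figure D4:**
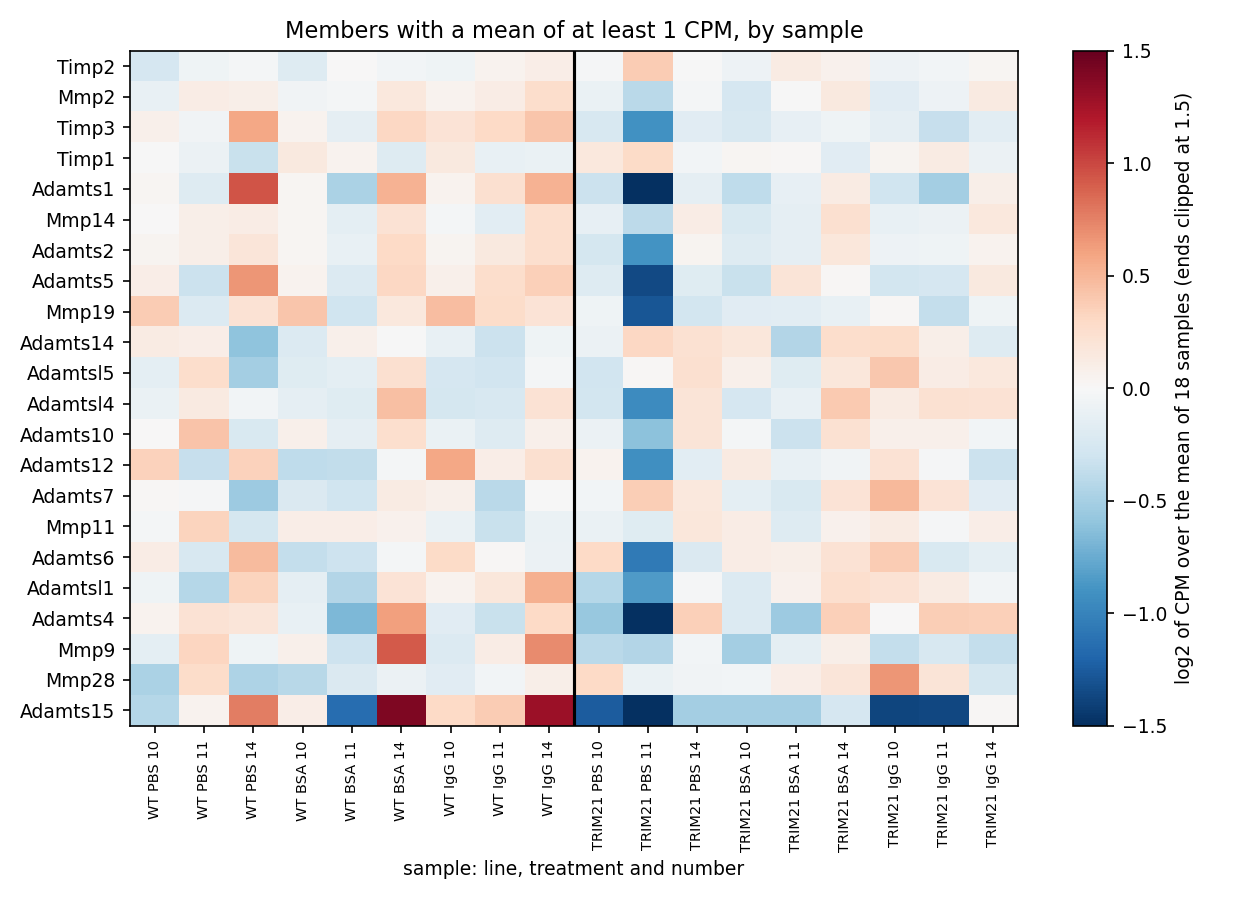
Each row is 1 of the 22 genes with a mean of at least 1 CPM and each column 1 of the 18 samples, coloured by the log2 of its CPM over the gene's mean, with colours clipped at 1.5 and a line between WT and TRIM21. The column of TRIM21 PBS number 11 is blue for most Adamts genes, as Adamts1 at 83.4 CPM shows, and red for Timp1 and Timp2.

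Looked at within each treatment, Mmp16 was called between the lines every time. After PBS its log2 fold change was -2.47 (edgeR adjusted p = 1.569e-04), and it was 1 of 27 matrix genes called, beside 1.71% of all tested genes. After BSA it was -1.41 (edgeR adjusted p = 0.0343), and Adamts9 was called with it, at -1.48 (edgeR adjusted p = 0.0476), which made 2 of 27 beside 0.848% of all tested genes. After IgG the log2 fold change of Mmp16 was -2.33 (edgeR adjusted p = 5.827e-04), again 1 of 27, beside 0.774% of all tested genes. The calls after BSA were the least firm. With 1 sample left out, Mmp16 stayed called after BSA in 14 of 18 fits and Adamts9 in 3, and neither passed without TRIM21 BSA 14, WT BSA 10 or WT BSA 14, while Mmp16 was called after PBS and after IgG with any 1 sample left out. The median log2 fold change of the 27 genes was -0.35 after PBS, -0.09 after BSA and -0.16 after IgG, and after PBS it was -0.18 without TRIM21 PBS 11. Timp3 and Adamts15 passed in no single treatment.

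The treatments moved no matrix gene past the threshold in either line. All 3 pairs of treatments were compared in each line, and the difference between the lines was tested for each pair. In these 9 comparisons edgeR called 0 of 27 matrix genes and 0 of all 12140 genes (0% called). At an unadjusted p under 0.05, IgG against PBS in TRIM21 had 2 of 27 matrix genes beside 5.61% of all genes, IgG against BSA had 0 beside 0.371%, and BSA against PBS had 1 beside 3.68%. In WT the counts were 0 beside 2.68%, 1 beside 5.87% and 1 beside 2.49%. For the differences between the lines they were 1 beside 1.82%, 0 beside 3.97% and 2 beside 6.51%. DESeq2 and limma-voom also called 0 matrix genes in each of the 9 comparisons. For IgG against PBS in TRIM21, the 95% interval of the log2 fold change was -0.13 to 0.41 for Mmp2 and -0.20 to 0.42 for Mmp14. It was -0.37 to 0.14 for Timp1, -0.40 to 0.08 for Timp2 and -0.18 to 0.57 for Timp3. The upper limit for Timp3 is larger in size than its called line difference of -0.46. These intervals hold for the named genes and this comparison only. Adamts1, also abundant, varied widely in TRIM21, at 191 ± 94.5 CPM after PBS and 246 ± 52.5 CPM after IgG (SD, n = 3).

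The gene with the lowest unadjusted p differed between treatment comparisons. It was Adamts16, a protease of low abundance, in TRIM21 for IgG against PBS (log2 fold change 1.11, edgeR adjusted p = 0.724) and for BSA against PBS (1.11, adjusted p = 0.841), which share the PBS samples. Its TRIM21 values were 0.238, 0.10 and 0.250 CPM after PBS, 0.278, 0.760 and 0.327 CPM after BSA, and 0.391, 0.297 and 0.628 CPM after IgG (numbers 10, 11 and 14). The lowest of these was again TRIM21 PBS number 11, and 0.10 CPM is below the level of 3 counts in that library. For IgG against BSA in TRIM21 it was Adamts7 (0.24, edgeR adjusted p = 1.00). In WT it was Mmp11 for IgG against PBS (-0.21, edgeR adjusted p = 1.00), Adamts12 for IgG against BSA (0.57, adjusted p = 0.741) and Mmp16 for BSA against PBS (-0.65, adjusted p = 0.982). WT Mmp16 was 1.10 to 1.202 CPM in the 3 PBS samples and 0.553 to 0.959 CPM in the 3 BSA samples. These values rest on 12 to 28 counts per sample, and the adjusted test did not call the difference. For the differences between the lines it was Adamts16 for IgG against PBS (1.45, edgeR adjusted p = 0.972) and BSA against PBS (1.47, adjusted p = 0.651), and Adamts12 for IgG against BSA (-0.59, adjusted p = 0.844).

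**Figure D5:**
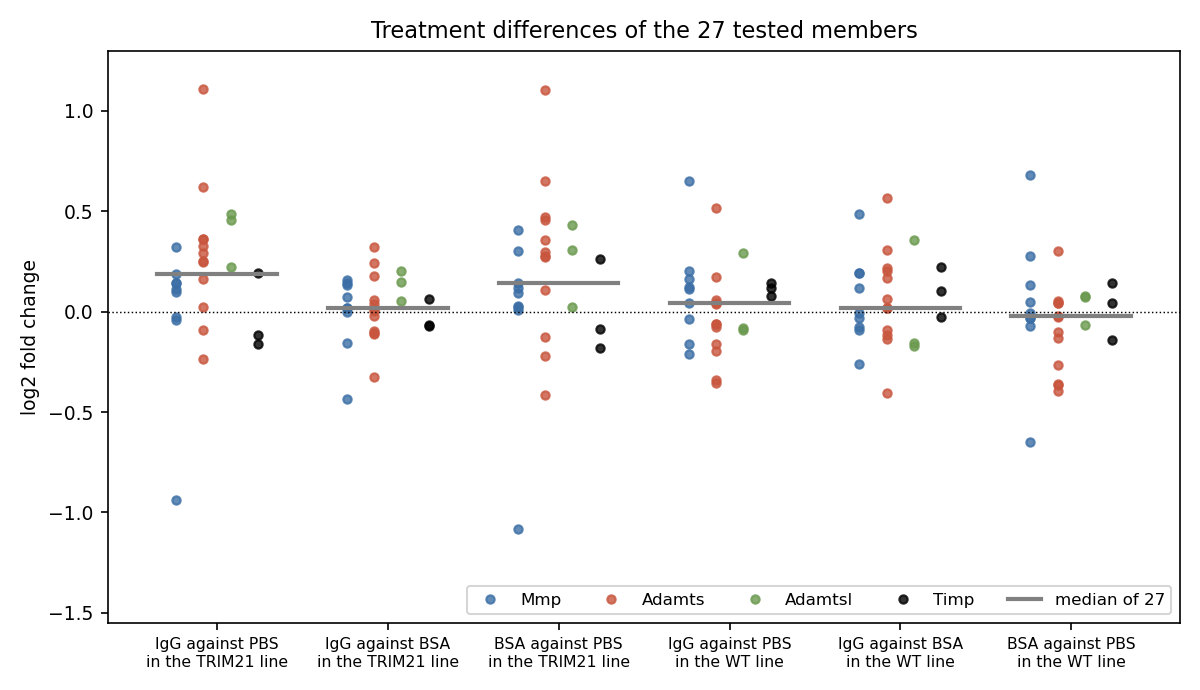
Each point is the log2 fold change of 1 of the 27 tested genes in 1 of 6 treatment comparisons, coloured by family, with the median as a grey bar. The medians lie between -0.02 and 0.19, and the 2 highest points, both at 1.11, are Adamts16 in the TRIM21 line.

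The genes that act with these enzymes were read from lists of activators, other inhibitors, other matrix proteases and non-collagen substrates, for the same line difference (6.18% of all tested genes called). Of 15 other inhibitors, 7 were measured and 3 passed, of which 2 are described here, both lower in TRIM21. Serpine2 (protease nexin 1, an inhibitor of thrombin and plasminogen activators) fell from 4.33 ± 1.07 CPM in WT to 0.901 ± 0.174 CPM in TRIM21 (SD, n = 9), with a log2 fold change of -2.24 (edgeR adjusted p = 2.586e-08) and no overlap between the lines. Reck, a membrane-anchored inhibitor of metalloproteinases, fell by 0.33 on the log2 scale (edgeR adjusted p = 0.0310).

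Of 20 other proteases, 15 were measured and 2 passed: the collagen-degrading cathepsin Ctsk at -1.27 (edgeR adjusted p = 1.298e-04), without overlap between the lines, and the procollagen C-proteinase relative Tll1 at -0.89 (edgeR adjusted p = 0.0154). Of 20 substrates, 13 were measured and 3 passed, all lower. The collagen-binding proteoglycan Lum stood at 2.07 ± 0.808 CPM in WT and 0.343 ± 0.181 CPM in TRIM21, a log2 fold change of -2.54 (edgeR adjusted p = 5.262e-05) without overlap. Fbn1, the fibrillin of microfibrils, fell by 0.30 (edgeR adjusted p = 0.00371) and the proteoglycan Bcan by 0.87 (edgeR adjusted p = 0.0103). Of 12 activators, 7 were measured and 1 passed, the kallikrein Klk8, which rose by 0.53 (edgeR adjusted p = 0.0343). Fbn1 was abundant, at 254 ± 26.8 CPM in WT, whereas Lum, Ctsk, Tll1, Bcan and Klk8 had at most 77 counts in any sample.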

How the data were processed

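The authors deposited raw counts of reads per gene, 1 table per sample. The submitters' processing notes name STAR 2.5.1b, HTSeq 0.6.0, DESeq2 1.6.3, bcl2fastq 2.19.1.403, FastQC 0.11.5 and mm10; the annotation and strand setting are not given in the sources used here. Lines for reads given to no gene, 1 block per table, stayed out of all totals. Samples were grouped by the line and treatment in the labels. The tests used edgeR 4.0.16 under R 4.3.3 (filterByExpr with a minimum count of 10 and total of 15, TMM factors 0.977 to 1.03, glmQLFit and glmQLFTest, 1 mean per group over all 18 samples), which tested 12140 of 24062 genes. CPM used TMM library sizes, and RPKM the exon length of GENCODE genes on GRCm38. Standard errors came from the F statistic. Of the symbols listed, 22750 matched GENCODE directly, 933 by an older symbol and 379 not at all. Pairs of samples of 1 group had a chi-square of 10.7 to 83.7 per degree of freedom, so none was a repeat within counting noise. The procedure was tested on simulated counts. Promoter windows were taken from RefSeq.

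The rule for named genes was: members called in any comparison, the 3 members with the highest RPKM of each protease family, all Timp genes, the member with the lowest p in each treatment comparison, and up to 8 called genes of the pathway lists by adjusted p. Klk8, the ninth, and the members beside these were added after their values were seen. One gene that the rule names is not reported here. The members and lists were chosen with earlier results of these data known. Alternatives were DESeq2 1.42.0, limma-voom (limma 3.58.1), DESeq2 size factors, other filters, a GC-content offset, the sample number as a block, 1 number only, only the groups compared, and each sample left out.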

Additional observations from a re-analysis of the deposited data

How the results depend on the processing

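Mmp16, Adamts9 and Timp3 stayed called between the lines in all 18 fits that left out 1 sample, with log2 fold changes of -2.14 to -1.999, -1.28 to -1.03 and -0.51 to -0.39. In those fits the matrix genes called were 3 to 7 (7 without TRIM21 PBS 14) and all genes 517 to 1268, against 4 and 750 (1268 without TRIM21 PBS 14); after PBS they were 1 to 3 (3 without TRIM21 PBS 14), after BSA 0 to 2 and after IgG 1. A minimum of 10 counts in every sample removed Mmp16, Adamts9 and Adamts15 from the test and left 1 matrix gene called on average, Timp3, and 0 after PBS, BSA or IgG. Without a filter 2 were called after PBS and 0 after BSA, and with DESeq2 also 2 and 0. With only the groups compared, 0 were called after BSA and 2 after IgG. In these alternative fits all genes were counted for the average over treatments only, so the counts after single treatments have no background beside them. The GC-content offset gave 1158 genes called, 780 of them lower, against 581 lower of 750.

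The labels do not say what the sample numbers mark. Of 45 same-number pairs, 32 had a correlation of deviations over 0.1 (mean 0.218, range -0.323 to 0.578). The numbers were not taken as pairing the samples, by a rule that needed every pair over 0.1. Missing that bar does not show that the numbers are unrelated, and the calls depend on this choice. With the number as a replicate block, 9 matrix genes were called, all lower (Adamts1, Adamts2, Adamts9, Adamts15, Mmp3, Mmp9, Mmp16, Mmp19 and Timp3), of 1462 genes, 936 of them lower; after PBS 7 were called and after IgG 2. With the replicate block and the GC-content offset together, 10 were called, of 2363 genes, 1289 of them lower, with 10 after PBS and 3 after IgG. For these counts after PBS and IgG, too, the share of all genes was not taken. Within 1 number alone, the fit held 6 samples and a model of line only, with the treatments pooled as samples of a line. All genes called were 314 (number 10), 48 (number 11) and 253 (number 14), and 0 matrix genes were called in number 11. Adamts9 passed in none of these 3 fits (log2 fold change -0.73, -1.36 and -1.502, adjusted p 0.224, 0.288 and 0.111), and Mmp16 and Timp3 failed in number 11 alone (adjusted p 0.311 and 0.710). Apart from the fits that left out 1 sample, Adamts15 lost its call in 2 of the 10 alternatives that tested it, number 11 among them. The sign turned for Adamtsl4 in number 10 (0.031) and number 14 (0.039) and when 1 sample was left out (-0.12 to 0.062), for Adamtsl1 in number 11 (0.052) and for Timp1 in number 10 (-0.030); the cause was not tested. In every alternative run, 0 matrix genes were called for the treatments and for their differences between the lines. Low counts limit Mmp16, Adamts9, Adamts15 and Mmp3 in TRIM21.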
